A study of Mus musculus with 8 samples.

Results

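The mitochondrially encoded genes are the 37 genes carried by mitochondrial DNA. They were taken as every row of the deposited gene tables whose symbol begins with mt-, and this gave 37 of the 53379 genes listed. They comprise 13 genes for proteins, 2 for ribosomal RNAs and 22 for transfer RNAs. The choice used names alone and no measured value.

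Mitochondrial DNA is a small circle present in many copies per cell, and its genes are transcribed as long RNAs that are later cut into single messages, rRNAs and tRNAs. Every protein it encodes is a subunit of the respiratory chain or of ATP synthase. These subunits work only when assembled with nuclear-encoded partners, and they are made on mitochondrial ribosomes built around the 2 mitochondrial rRNAs. In the colon, the surface epithelium relies on mitochondrial oxidation of butyrate, a fatty acid made by gut bacteria, for much of its energy.

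RNA was measured by sequencing in intestinal epithelial cells of the C57BL/6 mouse distal colon, shaken off the opened tissue. RORaf/f mice, whose floxed Rora gene is intact (WT below), were set against RORaΔIEC mice, an intestine-specific Rora knock-out (KO below). Rora encodes the nuclear receptor RORα. Mice of each genotype either had no treatment or drank 2% (w/v) dextran sulfate sodium (DSS), which damages the gut epithelium, over 5 days, with plain water for the 3 days after it. The 4 groups were therefore untreated WT, untreated KO, DSS WT and DSS KO, with 2 libraries in each. The labels name neither the Cre driver nor the age or sex of the mice, and they do not say whether the 2 libraries of a group came from separate animals. Every p-value therefore measures only the spread between these libraries, which may be technical.

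The 8 libraries held between 15971642 and 20418466 expected counts. The targeted gene, Rora, had 12 and 6 counts in the WT libraries and 4 and 3 in the KO libraries without DSS, and 16 and 14 against 8 and 5 with it. Rora was lower in the KO libraries of both treatments, but at depths too shallow to say how much. The summed level of 10 epithelial markers was high throughout, between 19830 and 23440 CPM (counts relative to the library total after TMM scaling, the unit of level used from here on). The 2 DSS KO libraries differed from each other more than those of any other group did, their chi-square over genes, per degree of freedom, being 4.85 against 1.29 to 2.13.

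The 15 protein and rRNA genes lie close together, and a few of them share bases, which bears on how reads can be assigned. Positions are on GRCm38 (mm10), chromosome M, with GENCODE M21 annotation, and sequences are from its transcripts. All 37 members matched that annotation by identifier and by length. The frames of mt-Atp8 and mt-Atp6, both subunits of ATP synthase, share 43 bases at positions 7927 to 7969. The frames of the complex I genes mt-Nd4l and mt-Nd4 share 7 bases at 10167 to 10173. The last 14 bases of mt-Nd5 and mt-Nd6, at 13552 to 13565, are the same stretch read from opposite strands, since mt-Nd6 is the only protein gene on the minus strand. mt-Atp6 and mt-Co3 share a single base at 8607. The 3 longer junctions are printed with the shared bases in capitals, and mt-Nd6 is added on its own, minus strand. The windows are chrM:7915-7981, chrM:10155-10185 and chrM:13540-13577 on the plus strand and chrM:13552-13577 on the minus strand.
mt-Atp8/mt-Atp6: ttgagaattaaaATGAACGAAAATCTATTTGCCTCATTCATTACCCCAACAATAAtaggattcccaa
mt-Nd4l/mt-Nd4: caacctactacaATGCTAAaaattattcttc
mt-Nd5/mt-Nd6: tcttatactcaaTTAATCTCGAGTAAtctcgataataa
mt-Nd6: ttattatcgagaTTACTCGAGATTAA
The strand setting of the counting is not given in the sources used here, so reads from the shared stretch of mt-Nd5 and mt-Nd6, and from RNA antisense to either, cannot be told apart by gene.

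The messages of mt-Co3, mt-Nd4 and mt-Cytb end 1 base past their last whole codon, with a T in the DNA. It is known for such mitochondrial messages that the stop codon is completed by the poly-A tail. The last 25 bases of these genes (chrM:9366-9390, chrM:11520-11544 and chrM:15264-15288, plus strand) are shown with that base in capitals.
mt-Co3: gtctccatttattgatgaggatctT
mt-Nd4: aaactaattacaggcctgacaataT
mt-Cytb: gacaaaatactaaaattatatccaT
Along the genome the 13 protein genes run from 204 bases (mt-Atp8) to 1824 bases (mt-Nd5), with a GC content of 31.9% to 41.1%. Across the 13 genes, the Spearman correlations of length, GC content and order along the genome with the changes described below were at most 0.38 in size, the largest being -0.38 for length with the interaction. The genes share their libraries, so these values are a description.

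A stretch of nuclear DNA holds near-perfect copies of all or part of 7 of the protein genes, and these decide how several members were counted. On chromosome 1, minus strand, between 24611535 and 24616197, the annotation lists pseudogenes of mt-Co1 (Gm29216), mt-Co2 (Gm28661), mt-Atp6 (Gm10925), mt-Co3 (Gm28437), mt-Nd3 (Gm28438), mt-Nd4l (Gm10222) and mt-Nd4 (Gm28439). The copies of mt-Co2, mt-Atp6, mt-Co3, mt-Nd4l and mt-Nd4 had no mismatch over their whole length. The start of mt-Nd3 and the matching stretch of mt-Co1 are shown beside their copies, with the differing bases in capitals. Counted from the first base of each gene, with the gene's base first, the differences are T3C in mt-Nd3 and T1056A, C1057T, A1059G, A1060G, C1062A and A1066T in mt-Co1. The windows are chrM:9459-9498 beside chr1:24613080-24613119 for mt-Nd3 and chrM:6381-6420 beside chr1:24616158-24616197 for mt-Co1, with the copies on the minus strand.
mt-Nd3: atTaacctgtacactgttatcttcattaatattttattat
Gm28438: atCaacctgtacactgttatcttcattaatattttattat
mt-Co1: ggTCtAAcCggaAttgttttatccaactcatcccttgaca
Gm29216: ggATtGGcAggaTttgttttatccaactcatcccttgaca
Within the annotated transcripts the other 5 pairs differ only where the gene runs past its copy. The last 30 bases of mt-Co2, mt-Atp6 and mt-Co3 (chrM:7667-7696, chrM:8578-8607 and chrM:9361-9390) are printed with the bases outside the copy in capitals.
mt-Co2: ttcgaaaactgatctgcttcaataattTAA
mt-Atp6: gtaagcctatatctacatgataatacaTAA
mt-Co3: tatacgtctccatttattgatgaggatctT

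RSEM, which divides reads that fit several places among them, gave much of this signal to the nuclear copies. Of the counts of a gene and its copy together, mt-Co2 received 7.83% to 10.6% over the 8 libraries and mt-Atp6 11.3% to 15.95%. mt-Nd4l received 16.9% to 26.5%, mt-Co3 23.9% to 31.5% and mt-Nd3 48.2% to 57.8%. The gene took most of the counts in every library in only 2 of the 7 pairs, mt-Co1 at 84.8% to 88.3% and mt-Nd4 at 99.9%. In these 2 pairs the copy covers only part of the gene. Gm29216 has 492 bases beside 1545 of mt-Co1, and Gm28439 has 876 beside 1378 of mt-Nd4. The split also moved between libraries of 1 group, mt-Nd4l standing at 16.9% in one DSS KO library and 25.5% in the other. Levels of mt-Co2, mt-Atp6, mt-Co3, mt-Nd3 and mt-Nd4l are therefore uncertain, and the count of genes called is given for each comparison below also with the counts of the copy added to its gene. The 6 protein genes with no near-identical copy (mt-Nd1, mt-Nd2, mt-Atp8, mt-Nd5, mt-Nd6 and mt-Cytb) and both rRNAs are free of this. A further 19 nuclear copies, some whole and some partial and between 80.6% and 97.6% identical, drew few counts, at most 340 in any library.

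**Figure D1:**
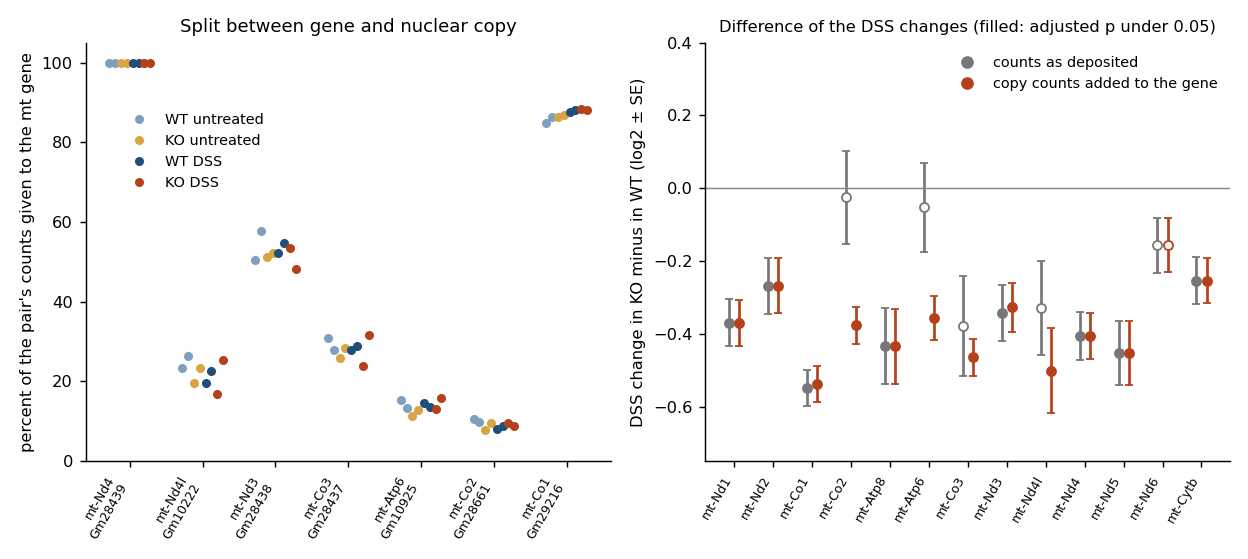
Left, percent of the counts of a mitochondrial gene and its chromosome 1 copy that were given to the gene, 1 point per library; right, the DSS change in KO minus that in WT (log2, bars are SE) for the 13 protein genes, with counts as deposited (grey) and with copies added (red). mt-Co2 and mt-Atp6 lie near 0 as deposited and at -0.38 and -0.36 with the copies added.

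Without DSS the 37 genes took 8.05% and 7.75% of all counts in the WT libraries and 7.23% and 7.28% in the KO libraries. With DSS they took 7.45% and 7.50% in WT and 5.29% and 4.91% in KO. The DSS KO libraries were the lowest of the 8, and no other library fell under 7.2%. The KO mean minus the WT mean was -2.37 percentage points under DSS (5.10% ± 0.27 against 7.48% ± 0.04, SD, n = 2 each) and -0.65 points without it. An exact permutation test of 2 against 2 libraries cannot go below p = 0.333, the value it gave for each of the 4 comparisons of this share. With the 7 copies added, the share was 12.1% and 11.6% in untreated WT, 11.0% in both untreated KO libraries, 11.2% in both DSS WT libraries, and 8.03% and 7.44% in DSS KO. In bulk samples such as these, fewer cells of a type and less RNA per cell cannot be told apart.

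**Figure D2:**
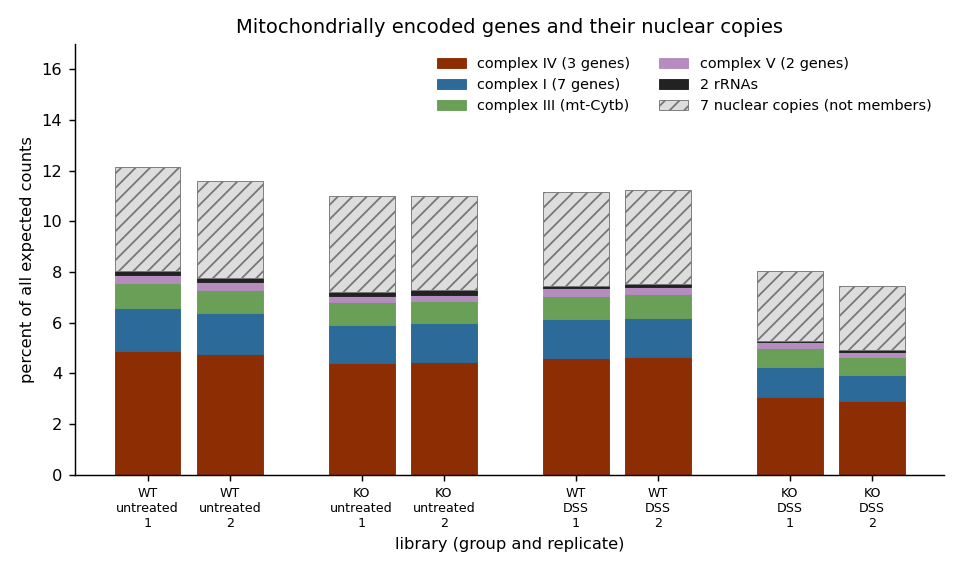
Stacked bars give the percent of all expected counts in each of the 8 libraries that went to the mitochondrial genes of each respiratory complex, to the rRNAs and, hatched, to the 7 nuclear copies. The members' part of the bar is lowest in the 2 DSS KO libraries, at 5.29% and 4.91%.

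All 22 tRNA genes were listed with 0 counts in each library. Their effective length, the number of positions at which a fragment of the library's size could start, was also 0 in the deposited tables. A gene with no effective length can receive no count from RSEM, so these zeros say nothing about tRNA levels.

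Levels between genes were compared per length, as deposited TPM, which divides counts by effective length and scales each library to one total. In untreated WT, mt-Co1, the catalytic subunit of complex IV, averaged 40090 TPM and mt-Cytb, the only mitochondrial subunit of complex III, 12540. They were followed by mt-Co3 at 8484, mt-Nd1 at 7717 and mt-Nd4 at 6152. This order holds for the counts as RSEM split them. With the reads of the copy added, on the gene's own effective length, mt-Co1 averaged 46830, mt-Co2 35290, mt-Co3 28810 and mt-Atp6 28510, all above mt-Cytb. The rRNAs stood at 1197 (mt-Rnr1) and 893 (mt-Rnr2). The value of mt-Atp8, 43320 TPM, rests on an effective length of only 38.2 to 41.5 of its 204 bases and is not comparable with the rest. The labels do not say whether RNA was selected by its poly-A tail or depleted of rRNA, so the rRNA levels are those of whatever passed that step.

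The clearest contrast was between the genotypes under DSS. All 13 protein genes fell in DSS KO relative to DSS WT in edgeR's quasi-likelihood test (adjusted p of at most 0.007299), a median of -0.53 on the log2 scale and single genes between -0.71 and -0.35. Over all 14991 genes tested, 17.7% were called lower and 21.3% higher in this comparison, and the median change was -0.006. In each of the 13 both KO libraries lay below both WT libraries, a pattern that 33.7% of all genes showed. With the copies added all 13 were again lower, with a median of -0.53. Markers of other cells moved with this contrast: 12 neutrophil markers summed to 318 and 341 CPM in DSS KO and to 53.1 and 57.4 CPM in DSS WT, and 12 macrophage and monocyte markers to 165 and 173 against 77.8 and 77.7 CPM. Ly6g made up most of the neutrophil sum in DSS WT, at 42.2 and 44.8 CPM, and stood at 103 and 112 CPM in DSS KO. Cd14 made up most of each macrophage and monocyte sum. The part of these markers in the lower mitochondrial levels was not tested.

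Complex I takes electrons from NADH, and 7 of its subunits are mitochondrial. mt-Nd5, part of its proton-pumping arm, stood at 2979 and 2951 CPM in WT and 2508 and 2465 in KO without DSS, and 2433 and 2323 in WT and 1595 and 1319 in KO with it. Its genotype difference under DSS was the largest of the 13, at -0.71 ± 0.06 (SE, adjusted p = 8.361e-07), and DSS KO lay below every other library. mt-Nd1, a membrane subunit at the ubiquinone site, stood at 4959 and 4623 CPM in WT without DSS and 4573 and 4669 with it, and 4690 and 4644 in KO without DSS and 3644 and 3323 with it. The 6 libraries outside DSS KO thus covered a narrow range for mt-Nd1, and its fall in DSS KO was -0.41 ± 0.05 (adjusted p = 6.947e-06). mt-Nd2, a membrane subunit of the same arm, stood at 2192 and 2097 CPM in WT and 1853 and 1836 in KO without DSS, and 1900 and 1845 in WT and 1436 and 1239 in KO with it. Untreated KO and DSS WT were at about the same level for mt-Nd2 and DSS KO was lower, by -0.49 against DSS WT.

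mt-Nd4, another subunit of the proton-pumping arm, stood at 6012 and 5759 CPM in WT without DSS and 5547 and 5535 with it, and 5441 and 5389 in KO without DSS and 4072 and 3623 with it. It fell by 30.6% in DSS KO against DSS WT (adjusted p = 7.144e-07). mt-Nd6, the minus-strand gene, stood at 641 and 585 CPM in WT and 475 in each KO library without DSS, and 466 and 463 in WT and 340 and 306 in KO with it. It differed from mt-Nd1 in that untreated KO and DSS WT were each already below untreated WT. mt-Nd3 ranged from 286 to 321 CPM in the untreated libraries and from 257 to 287 in DSS WT, and was 205 and 199 in DSS KO. mt-Nd4l ranged from 114 to 166 CPM outside DSS KO and was 77.9 and 89.6 in it. Both are small complex I subunits whose counts were shared with a nuclear copy, yet neither had a DSS KO library within the range of the other 6.

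mt-Cytb, the cytochrome b of complex III, stood at 9899 and 9409 CPM in WT without DSS and 9274 and 9345 with it, and 9048 and 8881 in KO without DSS and 7652 and 6847 with it. The DSS KO libraries were the lowest, with a genotype difference of -0.36 ± 0.05 (adjusted p = 2.273e-05), smaller than that of mt-Nd5 or mt-Co1.

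Complex IV passes electrons to oxygen, and its 3 core subunits are mitochondrial. mt-Co1 stood at 44060 and 43320 CPM in WT and 40240 and 40250 in KO without DSS, and 40920 and 41100 in WT and 26890 and 24750 in KO with it. The other 6 libraries lay close together while DSS KO was well below all of them, a difference of -0.67 ± 0.04 against DSS WT (adjusted p = 4.977e-09). mt-Co3 stood at 4425 and 3771 CPM in WT without DSS and 3561 and 3852 with it, and 3369 and 3708 in KO without DSS and 2134 and 2789 with it, with a difference of -0.59 ± 0.10 under DSS. mt-Co2, which carries the copper site that receives electrons from cytochrome c, stood at 1564 and 1347 CPM in WT and 1048 and 1284 in KO without DSS, and 1062 and 1188 in WT and 941 and 829 in KO with it. Most of its reads went to the nuclear copy, and its change under DSS was -0.35 ± 0.09 (adjusted p = 0.007299). The mt-Co2 call was lost in DESeq2 (adjusted p = 0.08136) and without DSS WT replicate 2 (adjusted p = 0.09459). With its copy added mt-Co2 changed by -0.47 ± 0.04.

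ATP synthase, complex V, has 2 mitochondrial subunits, both in its membrane part. mt-Atp8 stood at 1436 and 1385 CPM in WT without DSS and 1355 and 1311 with it, and 1253 and 1336 in KO without DSS and 1007 and 804 with it, a genotype difference of -0.56 ± 0.07 under DSS. mt-Atp6 stood at 1839 and 1467 CPM in WT and 1185 and 1341 in KO without DSS, and 1551 and 1433 in WT and 1036 and 1161 in KO with it. For mt-Atp6 the DSS KO libraries were the lowest, but the nearest untreated KO library was only slightly higher.

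**Figure D3:**
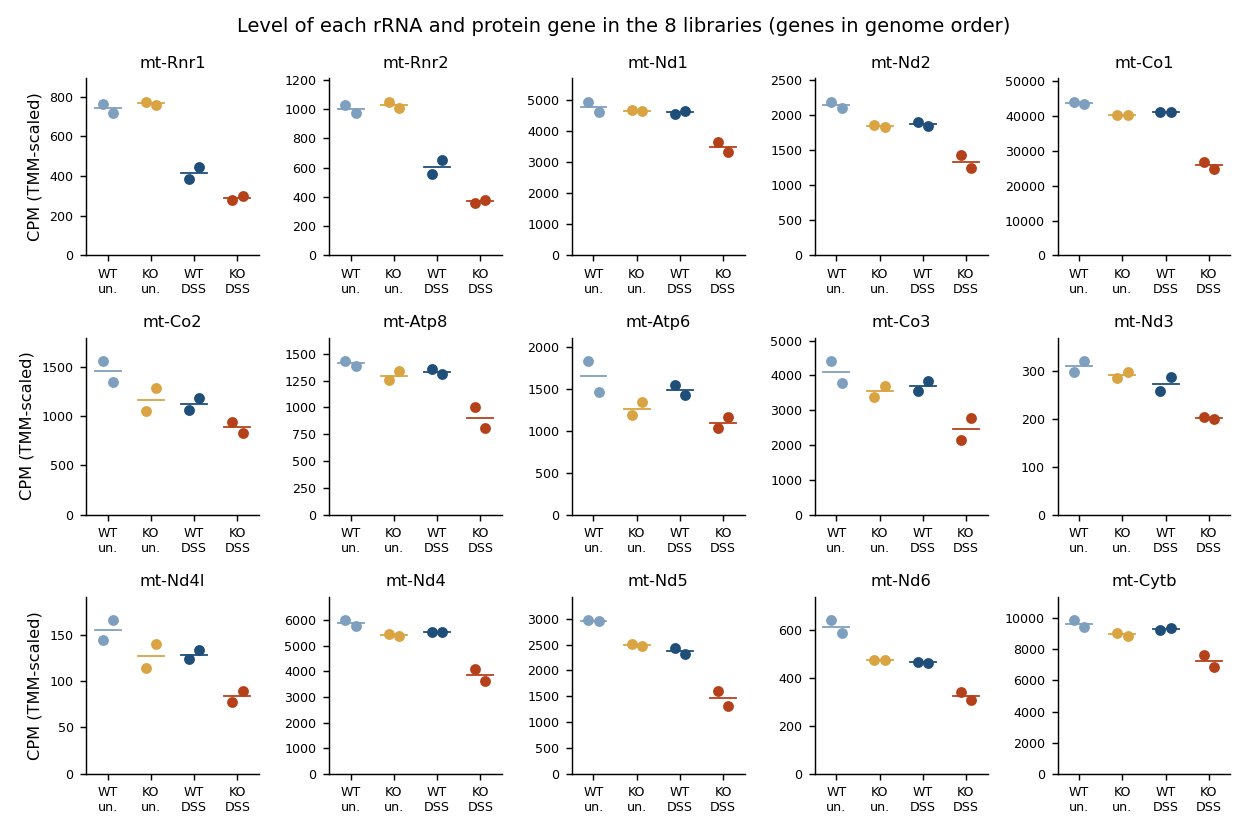
CPM after TMM scaling of the 2 rRNAs and 13 protein genes in each library (points) with the group mean (line); "un." stands for untreated and each vertical axis starts at 0. DSS KO is lowest in every panel, and mt-Rnr1 and mt-Rnr2 are also lower in DSS WT, a change of -43.7% and -39.8% against untreated WT.

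Without DSS the genotypes differed less in level. In untreated KO 7 of the 13 protein genes were lower than in untreated WT and none was higher, with a median of -0.21 and a range from -0.39 to -0.04. Of all genes tested, 6.22% were called lower and 9.19% higher. mt-Nd6 fell by 0.37 ± 0.05 on the log2 scale (adjusted p = 0.0002925), mt-Nd5 by 0.25 and mt-Nd2 by 0.22. mt-Co1 fell by 0.12, with 40240 and 40250 CPM against 44060 and 43320. The other calls, for mt-Atp6, mt-Co2 and mt-Nd4l, were of genes that share reads with a copy, and none of these was called once the copies were added, which left 4 lower. The count of 7 rested on single libraries: it fell without any untreated library and rose without either DSS KO library. The number of all genes called lower fell and rose in the same fits. With single libraries left out, the log2 change ranged from -0.25 to -0.19 for mt-Nd2 and from -0.13 to -0.11 for mt-Co1. It ranged from -0.27 to -0.24 for mt-Nd5 and from -0.44 to -0.30 for mt-Nd6. The mt-Nd6 call was the one that held in every one of these fits and in DESeq2.

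DSS alone, in WT, lowered 6 of the 13 protein genes against untreated WT and raised none, with a median of -0.15. Of all genes tested, 18.3% were lower and 18.9% higher. mt-Nd6 changed most, by -0.40 ± 0.05 (adjusted p = 4.74e-05), followed by mt-Co2 at -0.37 and mt-Nd5 at -0.32. With the copies added mt-Co2 was -0.10 (adjusted p = 0.05201) and mt-Nd4l, called at -0.27 as deposited, was -0.03, so neither was called. The count was then 5 lower (mt-Nd2, mt-Co1, mt-Nd3, mt-Nd5 and mt-Nd6) and the median -0.10. mt-Nd1 and mt-Cytb each stood at -0.05, and neither passed the test. The count fell without DSS WT replicate 1 and rose without either DSS KO library, as did the number of all genes called lower. In deposited TPM mt-Nd1, mt-Co1, mt-Atp8, mt-Nd4 and mt-Cytb averaged higher in DSS WT than in untreated WT, and the other protein genes lower. mt-Cytb averaged 13150 against 12540 TPM and mt-Nd1 8103 against 7717. None of the genes higher in deposited TPM was called in edgeR with the counts as deposited. With the reads of the copy added, mt-Co2, mt-Atp6, mt-Co3 and mt-Nd4l also averaged higher in DSS WT, and mt-Co1 lower. mt-Nd4l was then 6294 and 6517 TPM in untreated WT and 7227 and 6704 in DSS WT. mt-Co1 was 47040 and 46630 TPM in untreated WT and 46720 and 46320 in DSS WT. Each group enters 2 of the 4 pairwise comparisons, so their values are not independent of each other.

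In KO, DSS lowered 12 of the 13 protein genes against untreated KO and raised none, with a median of -0.52, where 19.8% of all genes were lower and 21.7% higher. The largest change was that of mt-Nd5, -0.77 ± 0.06 (adjusted p = 2.253e-07), and mt-Co1 followed at -0.64 ± 0.04. mt-Atp6, at -0.20 ± 0.09, did not pass (adjusted p = 0.0798). With its copy added mt-Atp6 changed by -0.47 ± 0.04 (adjusted p = 6.216e-07), and all 13 were then lower.

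The interaction asks whether the DSS change differed between the genotypes. It was negative, meaning a larger fall in KO, for 8 of the 13 protein genes and positive for none, with a median of -0.34. Among all genes 10.6% were called negative and 10.8% positive. mt-Co1 had the largest value, -0.55 ± 0.05 (adjusted p = 4.367e-06), followed by mt-Nd5 at -0.45, mt-Atp8 at -0.43 and mt-Nd4 at -0.41. mt-Nd6 was among those not called, at -0.16 ± 0.08 (adjusted p = 0.1604). With the copies added 12 of 13 were called, mt-Nd6 being the exception. The count fell without untreated KO replicate 2 or DSS WT replicate 1, as did the number of all genes called negative. Of the 6 genes with no near-identical copy, 5 were called in the interaction and all 6 were lower in DSS KO than in DSS WT.

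**Figure D4:**
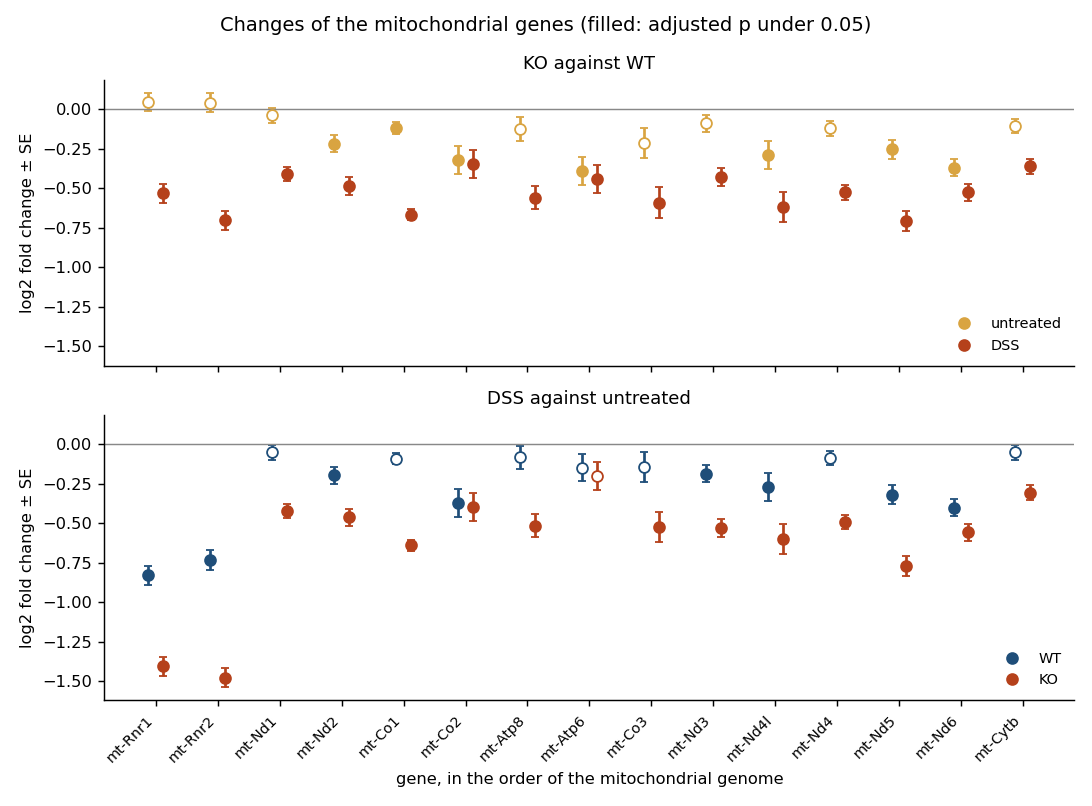
Log2 fold changes with SE of the 2 rRNAs and 13 protein genes in genome order, for KO against WT in each treatment (top) and DSS against untreated in each genotype (bottom); filled points passed the test. The rRNAs at the left lie near 0 in untreated KO and at -1.41 and -1.48 for DSS in KO.

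The 2 rRNAs, which form the cores of the small (mt-Rnr1) and large (mt-Rnr2) mitochondrial ribosomal subunits, differed from the messages in how they responded to DSS. mt-Rnr1 stood at 765 and 718 CPM in WT without DSS and 387 and 448 with it, and 776 and 756 in KO without DSS and 280 and 297 with it. mt-Rnr2 stood at 1024 and 974 CPM in WT and 1051 and 1007 in KO without DSS, and 554 and 649 in WT and 360 and 379 in KO with it. For both, untreated KO overlapped or exceeded untreated WT, DSS WT was clearly lower, and DSS KO was lower still. In WT, mt-Rnr1 fell by 43.7% and mt-Rnr2 fell by 39.8% with DSS, log2 changes of -0.83 ± 0.06 and -0.73 ± 0.06 (adjusted p = 1.092e-07 and 4.579e-07). In KO, the falls were -1.41 ± 0.06 and -1.48 ± 0.06. The interaction passed for both, at -0.58 ± 0.08 for mt-Rnr1 and -0.74 ± 0.09 for mt-Rnr2.

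Both rRNAs remained lower in DSS KO than in DSS WT, and lower under DSS in each genotype, when any 1 library was left out. Measured against the sum of the 13 messages rather than all genes, both rRNAs still fell with DSS, by 0.72 and 0.63 on the log2 scale in WT and by 0.86 and 0.93 in KO. On that scale the genotypes' DSS changes differed for mt-Rnr2 (-0.30 ± 0.11, adjusted p = 0.01843) and not detectably for mt-Rnr1 (-0.13, adjusted p = 0.2855). The rRNAs made up 2.14% to 2.49% of the members' counts in the 4 untreated libraries, 1.27% and 1.47% in DSS WT, and 1.24% and 1.41% in DSS KO. Their ratio moved as well: mt-Rnr2 had 1.33 to 1.36 counts per mt-Rnr1 count in the untreated libraries, 1.43 and 1.45 in DSS WT, and 1.29 and 1.27 in DSS KO. DSS WT was thus above and DSS KO below both untreated groups, without overlap. The poly-A selection or rRNA removal step is not known, and its part in these rRNA differences was not tested.

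Few of the mitochondrial messages were called relative to their own total when all 8 libraries were fitted. A second fit used the total of the 13 messages as the library size, so that a called gene changed relative to that total. A change shared by all 13 cancels on this scale, and mt-Co1 alone made up 52.4% to 56.3% of that total. Any shift of that total moves all other genes on this scale, and 75.4% of all genes were called in either direction for KO against WT under DSS, 75.6% for DSS in KO, 58.9% for the interaction, 34.9% for DSS in WT and 23.6% for untreated KO against WT. Of the 13 messages 3, 3, 3, 3 and 2 were called in these comparisons. The scale is set by these 13, so their counts cannot be read against the shares of all genes. mt-Cytb and mt-Nd1 rose relative to the total in DSS KO against DSS WT, by 0.21 ± 0.06 (adjusted p = 0.002092) and 0.17 ± 0.06 (adjusted p = 0.01364). mt-Cytb made up 15.0% and 14.5% of the members' protein-gene counts in DSS KO and 12.2% to 12.7% elsewhere. mt-Co1 made up 52.7% and 52.4% there and 54.8% to 56.3% elsewhere. mt-Nd5 fell relative to the total with DSS in both genotypes, by 0.21 in WT and 0.23 in KO, and its part of the counts went from 3.70% and 3.82% in untreated WT to 3.13% and 2.79% in DSS KO. mt-Nd6 was relatively lower in untreated KO and with DSS in WT, by 0.23 and 0.29. mt-Cytb was relatively higher with DSS in KO, by 0.24, and mt-Nd6 positive in the interaction, at 0.28, and both were called with the copies added too. The other calls were of mt-Co2 and mt-Atp6, and no call of these 2 remained when the copies were added. In KO against WT under DSS, adding the copies gave 4 calls: mt-Cytb, mt-Nd1 and mt-Nd3 higher and mt-Nd5 lower. With the DSS KO group reduced to its replicate 2 or 1 the counts became 9 and 8 for KO against WT under DSS, 6 and 9 for DSS in KO, 7 and 7 for the interaction, and 6 and 6 for untreated KO against WT. Without DSS WT replicate 1 they were 1 for KO against WT under DSS and 1 for DSS in WT. A single call also remained for DSS in WT without untreated WT replicate 1, and for the interaction without untreated KO replicate 1 or DSS WT replicate 2. For untreated KO against WT no call remained once replicate 1 of either group was left out, and a single one when replicate 2 of the KO was.

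Nuclear genes for the partners of these subunits were mostly higher or not called in DSS KO against DSS WT, where the mitochondrial genes fell. Of the 73 nuclear subunits of complexes I, III, IV and V, 38 were higher and 2 lower in DSS KO than in DSS WT, with a median of 0.14. All 13 mitochondrial subunits were lower. Of all genes tested, 21.3% were called higher and 17.7% lower in that contrast. Complex V had 10 of 16 nuclear subunits higher, complex I 19 of 36, complex III 5 of 9 and complex IV 4 of 12. Atp5g1, a subunit of the ATP synthase rotor ring, was 150 and 152 CPM in DSS WT and 180 and 206 in DSS KO, a change of 0.35 ± 0.06 (adjusted p = 0.0001502). Uqcrq, a small complex III subunit, was 107 and 112 CPM in DSS WT and 137 and 156 in DSS KO, a change of 0.42 ± 0.06 (adjusted p = 4.272e-05). Ndufb7 and Cox6b1, of complexes I and IV, rose by 0.26 and 0.18. Ndufa6, a complex I subunit, was one of the 2 that fell, by 0.22. Complex II, which has no mitochondrial subunit, had 1 of 4 genes higher, Sdhc at 0.18. Both Uqcrq and Atp5g1 stood higher in DSS KO replicate 2 than in replicate 1. The count of 38 became 63 without DSS KO replicate 1, 12 without its replicate 2, 7 without DSS WT replicate 1, 20 without DSS WT replicate 2 and 27 to 29 without single untreated libraries. DESeq2 called 23 higher, effective-length offsets gave 20 and a fit of the compared groups alone 19, and the median stayed between 0.06 and 0.22 throughout.

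With DSS, most nuclear subunits fell in WT and few were called in KO. In WT, DSS lowered 52 of the 73 nuclear subunits and raised none, with a median of -0.23. It lowered 6 of 13 mitochondrial subunits, with a median of -0.15, and 18.3% of all genes. The 52 became 31 without untreated WT replicate 1 and 32 without DSS WT replicate 1. In KO, 12 of 13 mitochondrial subunits were lower under DSS, with a median of -0.52. Of the 73 nuclear subunits, 9 were higher and 6 lower, with a median of 0.01. Both were shares below the 21.7% and 19.8% of all genes. Without DSS KO replicate 1 those counts were 30 higher and 4 lower, and without its replicate 2 they were 4 higher and 23 lower. Dropping an untreated KO library also left 3 higher, with 4 lower (replicate 1) or 2 lower (replicate 2). The interaction was called positive for 10.8% and negative for 10.6% of all genes. There 37 nuclear subunits were positive and none negative, the opposite sign to the mitochondrial genes. That count ranged from 7 to 68 when single libraries were left out: it was 68 without DSS KO replicate 1 and 7 to 21 without each of the other 7 libraries, with the median positive each time. DESeq2 gave 20 and effective-length offsets 9. In untreated KO 6 nuclear subunits were lower and none higher, and 26 or 27 were lower without 1 DSS KO library and 2 or 3 without any 1 of the other 6. The 6 lower in untreated KO were a share near the 6.22% of all genes called lower there. With only the groups compared 32 of the nuclear subunits were lower, with no low-count filter 22 and with effective-length offsets 2.

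**Figure D5:**
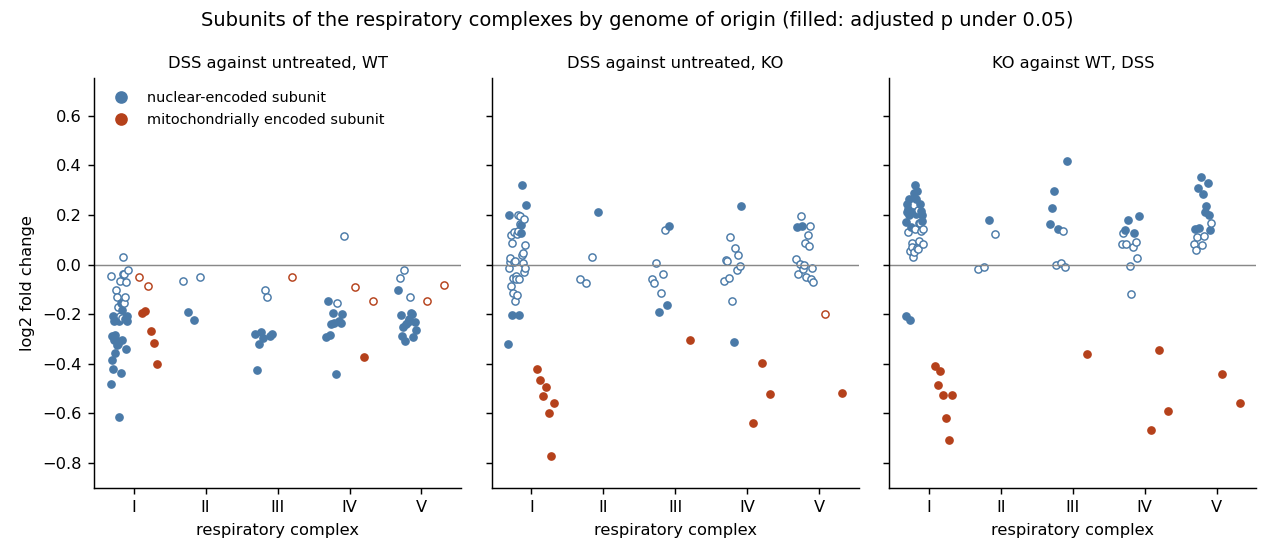
Log2 fold change of each nuclear-encoded (blue) and mitochondrially encoded (red) subunit of respiratory complexes I to V in 3 comparisons; filled points passed the test. Under DSS, KO against WT, all 13 mitochondrial subunits lie below 0 and 38 of the 73 nuclear subunits of the complexes that have both kinds were called higher.

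Genes of the mitochondrial ribosome's proteins, all nuclear, were higher or not called under DSS in KO against WT, where both rRNAs they bind fell. Of 78 such genes, 39 were higher and none lower in DSS KO than in DSS WT, with a median of 0.26. Of all genes tested, 21.3% were called higher and 17.7% lower in that contrast. Mrpl28 was 30.4 and 32.1 CPM in DSS WT and 42.4 and 47.7 in DSS KO, and Mrpl20 rose by 0.53 as well. The count was 58 without DSS KO replicate 1 and 28 to 38 without each other library. DSS in WT, where 18.3% of all genes were called lower, lowered 22 of the 78 and raised none. That count was 9 without replicate 1 of untreated WT or of DSS WT, 15 without replicate 2 of untreated WT and 12 without replicate 2 of DSS WT. DSS in KO raised 18 and lowered none, and the 18 became 10 without untreated KO replicate 2 and 11 without DSS KO replicate 2. The 18 higher with DSS in KO were a share near the 21.7% of all genes called higher there. DESeq2 gave 8 lower for DSS in WT and 11 higher for DSS in KO. Of 13 factors that translate mitochondrial messages 4 were higher and 1 lower in DSS KO, among the higher ones C1qbp at 0.46 ± 0.05 and the elongation factor gene Gfm1 at 0.33 ± 0.05.

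The pathway lists that follow are read against the 21.3% of all genes called higher and 17.7% called lower in DSS KO against DSS WT. The machinery that transcribes mitochondrial DNA showed few changes. Of 9 such genes 1 was higher and 1 lower in DSS KO than in DSS WT. Tfam, which packages mitochondrial DNA and starts its transcription, was 38.2 and 37.5 CPM in DSS WT and 42.06 and 44.98 in DSS KO, a rise of 0.20 ± 0.06 (adjusted p = 0.01855). Mterf4, a transcription and ribosome assembly factor, fell by 0.26. Polrmt, the mitochondrial RNA polymerase, was 31.9 and 31.0 CPM in DSS WT and 29.9 and 29.6 in DSS KO, and the difference did not pass (-0.08 ± 0.06, adjusted p = 0.3512). Of 14 genes for mitochondrial DNA replication and packaging, 1 was higher and none lower, Mgme1, an exonuclease gene, at 0.34. Among 22 genes for RNA processing, stability and decay, 5 were higher and 2 lower, the former a share near that of all genes. Lrpprc and Slirp, whose protein pair stabilises mitochondrial messages, stood at 0.08 ± 0.05 (adjusted p = 0.231) and 0.23 ± 0.10 (adjusted p = 0.08122), and neither passed. Pde12, which removes poly-A tails in mitochondria, rose by 0.39 ± 0.07, and Pnpt1, a subunit of the mitochondrial RNA-degrading enzyme, by 0.34 ± 0.06.

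Regulators of mitochondrial biogenesis were mostly lower: 7 of 13 fell and 2 rose in DSS KO against DSS WT. Ppargc1a, a coactivator that drives mitochondrial biogenesis, was 74.2 and 78.1 CPM in WT without DSS and 56.2 and 53.7 with it, and 63.5 and 62.9 in KO without DSS and 42.4 and 35.9 with it. The 4 groups did not overlap, untreated WT being highest and DSS KO lowest, as for all 13 mitochondrial protein genes by group mean. In the pairwise comparisons, 28.1% to 35.7% of all genes had both libraries of the first group below both of the second. Ppargc1a was lower in DSS WT than in untreated KO, as were 5 of those 13 genes, while the other 8 and the 37-gene share were higher there. The part of Ppargc1a in the mitochondrial levels was not tested. Ppargc1a changed by -0.49 ± 0.07 between the genotypes under DSS (adjusted p = 7.515e-05), by -0.47 with DSS in WT and by -0.69 with DSS in KO. Its interaction, -0.22, did not pass (adjusted p = 0.1153). Ppara, a receptor that controls fatty acid oxidation, was 7.66 and 8.24 CPM in WT and 10.5 and 9.79 in KO without DSS, and 7.93 and 7.12 in WT and 4.60 and 3.03 in KO with it. Among 46 assembly factors of the respiratory complexes 11 were higher and 2 lower in DSS KO, the higher share again near that of all genes, including Uqcc2 (complex III) at 0.60 and Acad9 (complex I) at 0.28. In the list for mitophagy and quality control 8 of 21 were higher and 1 lower. Bnip3, a mitophagy receptor, was 12.2 and 13.4 CPM in DSS WT and 30.8 and 31.0 in DSS KO, a rise of 1.27 ± 0.08 (adjusted p = 1.529e-08), and Hspd1, a mitochondrial chaperone, rose by 0.48 ± 0.05.

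Markers of cell state and of other cell types moved with the same groups. Their called counts are read against all genes tested. With DSS in WT 18.3% of these were lower and 18.9% higher. In KO against WT 17.7% were lower and 21.3% higher under DSS, and 6.22% lower and 9.19% higher without it. The 10 colonocyte markers summed to 10000 and 9858 CPM in WT without DSS and 6773 and 6894 with it, and 10410 and 10420 in KO without DSS and 6063 and 6315 with it. The 9 goblet cell markers summed to 17170 and 17470 CPM in WT and 16760 and 16780 in KO without DSS, and 10230 and 9942 in WT and 8112 and 8174 in KO with it. Both sums were lower in DSS WT than in the untreated libraries, as the rRNAs were, and lowest in DSS KO. With DSS in WT 9 of 10 colonocyte markers fell and 1 rose, and 6 of 10 were lower and 1 higher in DSS KO than in DSS WT. Of the 9 goblet cell markers 5 were lower and 3 higher with DSS in WT, Agr2 going from 819 and 769 CPM to 1502 and 1575, and 5 were lower and none higher in DSS KO against DSS WT. The 11 proliferation markers summed to 555 and 551 CPM in WT and 804 and 811 in KO without DSS, and 486 and 476 in WT and 1076 and 1023 in KO with it, and all 11 were higher in KO under either treatment. In DSS KO the neutrophil marker S100a8 reached 52.9 and 58.3 CPM, against 1.68 and 2.00 in DSS WT and 0 in every untreated library, and all 11 tested neutrophil markers of 12 listed were higher than in DSS WT. In the untreated libraries the neutrophil markers summed to 86.2 to 99.8 CPM, almost all of it Ly6g. The macrophage and monocyte markers summed to 49.3 to 51.8 CPM there, and 7 of 12 were higher in DSS KO than in DSS WT. Most of each macrophage and monocyte sum was Cd14. It stood at 39.4 to 42.3 CPM in the untreated libraries, 47.2 and 47.8 in DSS WT and 105.9 and 111.8 in DSS KO. The epithelial sum was no lower in DSS KO (20800 and 21820 CPM) than in DSS WT (19830 and 19920). Of the 10 epithelial markers 4 were higher and 1 lower in that contrast, Cdx2 standing at 102 and 109 CPM against 142 and 147. Fibroblast markers summed to 24.6 and 23.8 CPM in DSS KO and 12.6 and 13.7 in DSS WT, and 5 of the 6 tested were higher. Erythrocyte markers summed to 160 and 162 CPM in DSS WT, 89.0 and 96.7 in DSS KO and 67.8 to 73.0 in the untreated libraries, and all 5 were higher with DSS in WT and 4 of 5 lower in DSS KO than in DSS WT. Of 3 RNAs retained in the nucleus (Malat1, Neat1 and Kcnq1ot1) 1 was lower and none higher in DSS KO against DSS WT, Malat1 standing at 428 and 372 CPM against 572 and 620. The part of these in the mitochondrial levels was not tested.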

How the data were processed

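RNA-seq of 8 libraries in 4 groups of 2 was analysed. The authors deposited, per gene and library, RSEM expected counts (estimated counts in which reads fitting several genes are divided among them), TPM and FPKM. The build mm10 and the tools RSEM 1.3.0, STAR 2.5.3a and DESeq2 1.18.1 are listed in the submitters' processing notes. The annotation release, strand setting and options are not given in the sources used here, nor is the rRNA removal or poly-A selection step. TPM served for levels between genes and as an alternative scale, and FPKM was not used.

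Expected counts were rounded and tested with edgeR 4.0.16 (R 4.3.3, limma 3.58.1): filterByExpr (14991 of 53379 genes kept), TMM scaling, group means over all 8 libraries with 4 residual degrees of freedom, the quasi-likelihood F test and Benjamini-Hochberg adjustment over all genes tested, with a threshold of 0.05. Standard errors were taken as the absolute log2 value over the root of F. The script was tested on simulated data. The interaction is the DSS change in KO minus that in WT. A second fit took the sum of the 13 mitochondrial protein genes as library size.

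Nuclear copies were found by BLAST 2.17.0+ of member transcripts against pseudogene transcripts of GENCODE M21 (80% identity over 100 bases). A copy counted as near-identical at 99% identity over 90% of its length. Of the gene identifiers, 50604 matched that release.

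Named were all 13 protein genes, both rRNAs, tRNAs with 10 counts in 2 libraries (none), the near-identical copies, the 2 members of each pathway list with the smallest p in KO against WT under DSS among those called, and Tfam, Polrmt, Lrpprc, Slirp and Ppargc1a. Other genes named, including Ly6g and S100a8 from the marker lists and Ndufa6 from the complex I list, come from those lists. The members and lists were chosen with earlier results of these data known. The alternatives were RLE size factors, DESeq2 1.42.0, no low-count filter, scaling on nuclear genes, effective-length offsets, the compared groups alone, a replicate block, added copies and leaving out each library. Applying them to the nuclear gene lists was decided after seeing the data.

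The replicate numbers of the labels were not used to pair libraries: the deviations of same-numbered libraries correlated between -0.112 and 0.0772. Counting error is small for the protein genes at these totals (838033 to 1642926 member counts per library), and the spread between 2 libraries sets the precision.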

Additional observations from a re-analysis of the deposited data

Results flagged for a closer look

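The DSS change differed between the genotypes, by the interaction term in edgeR's quasi-likelihood test with adjustment over all genes, for 25 of the genes named. Of all genes tested, 10.6% were called negative and 10.8% positive in the interaction. The nuclear genes below were picked for a small p in KO against WT under DSS, a contrast that is part of the interaction, so their calls and signs are not independent of that choice. Among the mitochondrial genes the difference (KO minus WT, log2) was -0.37 for mt-Nd1, -0.27 for mt-Nd2, -0.34 for mt-Nd3, -0.41 for mt-Nd4 and -0.45 for mt-Nd5, all of complex I. It was -0.25 for mt-Cytb, -0.55 for mt-Co1 and -0.43 for mt-Atp8. The rRNAs stood at -0.58 for mt-Rnr1 and -0.74 for mt-Rnr2. Each of these 10 fell further with DSS in KO than in WT.

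The named nuclear subunits that were called had the opposite sign. Ndufb7 of complex I stood at 0.29, Uqcrq and Uqcr11 of complex III at 0.43 and 0.33, Cox6b1 of complex IV at 0.31, and Atp5g1 and Atp5g3 of ATP synthase at 0.29 and 0.32. Sdhc of complex II, which has no mitochondrial subunit, stood at 0.25. The ribosomal protein genes Mrpl28 and Mrpl20 stood at 0.51 and 0.57, and the translation genes C1qbp and Gfm1 at 0.31 and 0.22. Uqcc2, an assembly factor, stood at 0.47, and Hspd1, a chaperone, at 0.34.

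Bnip3, the mitophagy receptor, was lower with DSS in WT (-0.47) and higher with DSS in KO (0.99), a difference of 1.46. Ppara had the largest difference in the other direction, -1.33, having fallen by 1.41 with DSS in KO.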

How the results depend on the processing

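Calls for KO against WT under DSS and for DSS in KO moved least, with 12 to 13 and 11 to 13 protein genes lower when single libraries were left out. The 7 lower in untreated KO became 11 with no low-count filter, 11 with only the groups compared, 4 with effective-length offsets, 4 with copies added, 2 in DESeq2 and 1 to 11 without single libraries. The 6 lower with DSS in WT became 10 with no filter and 3 to 10 without single libraries, and the 8 of the interaction 5 to 10. Against the mitochondrial total, leaving out libraries gave 0 to 6 for untreated KO, 1 to 9 for KO against WT under DSS, 1 to 4 for DSS in WT, 2 to 9 for DSS in KO and 1 to 7 for the interaction. With copies added those counts went from 2 to 1 for untreated KO, from 3 to 4 for KO against WT under DSS, from 3 to 2 for DSS in WT, from 3 to 2 for DSS in KO and from 3 to 1 for the interaction. Over all genes the number called also moved between these fits. In untreated KO 932 of 14991 genes were called lower. That number was 1247 of 26536 with no low-count filter and 1584 of 14239 with only the groups compared. It was 504 with effective-length offsets, 929 with copies added and 498 in DESeq2. The cause of these moves was not tested.

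The difference in mitochondrial share, in percentage points, was with copies added -0.867 for untreated KO, -3.47 for KO against WT under DSS, -0.665 for DSS in WT and -3.27 for DSS in KO. Per count of all other genes it was -2.70 and -2.44 for KO against WT under DSS and DSS in KO, and in deposited TPM -4.24 and -3.42. For DSS in WT the TPM share turned to 0.214. mt-Atp8, whose TPM is not comparable with the rest, averaged 43320 TPM in WT mice before DSS and 46090 after it. That rise was larger than the rise of the whole share, so the positive sign rested on mt-Atp8. Its mean was 31680 TPM for DSS KO, so its fall is also part of the -4.24 points. The cause of the other moves was not tested.

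Single gene values changed sign 10 times, all for uncalled values. Without untreated WT replicate 1, mt-Nd1 in untreated KO was 0.0113 (range over left-out libraries -0.0898 to 0.0113) and mt-Atp6 with DSS in WT 0.0225 (-0.3032 to 0.0225). In the interaction mt-Co2 (-0.1640 to 0.1298) turned positive without replicate 2 of untreated WT, untreated KO, DSS WT or DSS KO. There mt-Atp6 (-0.2238 to 0.1018) did so without replicate 2 of untreated WT or untreated KO and without replicate 1 of DSS WT or DSS KO. Of the other gene values 1059 kept direction and call, 65 lost a call and 51 gained one. With the replicate block the protein genes lower numbered 7, 13, 6 and 12 in the pairwise comparisons and 9 in the interaction, mt-Nd4l being the one added (-0.33, adjusted p = 0.006877). The replicate numbers do not pair the libraries, so the block is given only here.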
